A study of Mus musculus with 32 samples.

Results

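The 5 genes S100a4, S100a6, S100a10, S100a11 and S100a13 of the S100 family of calcium-binding proteins were followed in mouse B cells with and without the transcription elongation factor ELOF1. They are 5 of the 43345 mouse genes counted. The genes were chosen by name, because S100a4 and S100a6 were higher in knockout than in wild-type spleen B cells, so the spleen knockout values of all 5 are given as a description, without a test. RNA sequencing had been made of 32 libraries from 2 cell systems. In CH12F3, a mouse B lymphoma line that switches its immunoglobulin class in culture, both arms carried the Elof1 knockout (Elof1-KO). One arm carried an empty vector (+Vector, called vector here), and the other an ELOF1 construct (+ELOF1, called ELOF1 here). Both arms had been stimulated through CD40 together with IL-4 and TGF-β for 1.5 days (4 vector and 4 ELOF1 libraries), 3 days (2 and 2) or 7 days (2 and 2). The other system was spleen B cells with a conditional Elof1 knockout (Elof1-cKO, called cKO) or wild type (WT), stimulated with IL-4 and LPS for 2.5 days (5 cKO and 5 WT libraries) or 3.5 days (3 and 3). The promoter that drives Cre, the animals behind each spleen library, their age, and whether the CH12F3 arms came from 1 clone are not stated in those labels. Nothing in the labels says that the numbered repeats are separate cultures or animals, so p-values measure only the spread between these samples, which may be technical.

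S100 proteins are small proteins with a pair of EF-hands, helix-loop-helix motifs that bind calcium. Most form dimers that open on calcium binding and then hold a target protein. S100A10 is the exception: it does not bind calcium and sits in a complex with annexin A2 at the plasma membrane. S100A4 binds the heavy chain of non-muscle myosin IIA, S100A6 binds the calcyclin-binding protein CacyBP, S100A11 binds annexin A1, and S100A13 takes part in the release of FGF1 and IL-1α, proteins without a signal peptide. In lymphocytes, high S100A4 and S100A6 RNA is known from effector and memory cells. ELOF1 binds RNA polymerase II and acts in elongation and in transcription-coupled DNA repair.

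All 5 genes lie on the plus strand of chromosome 3 in the mm10 table. S100a13 (chr3:90514435-90524581), S100a4 (chr3:90603770-90606045) and S100a6 (chr3:90612894-90614414) share one cluster, and S100a4 ends 6.848 kb before S100a6 begins. S100a11 (chr3:93520488-93526287) and S100a10 (chr3:93555080-93564643) form a second group 2906.073 kb further along, 28.792 kb apart from each other. S100a6 is the shortest, with a span of 1521 bases in 3 exons, and S100a13 the longest, with 10147 bases in 4 exon blocks. The other spans were 2276 bases for S100a4, 5800 for S100a11 and 9564 for S100a10. Of all mouse genes in the table, 63.1% span less than 10 kb. No exon of the 5 overlaps an exon of another gene. A processed pseudogene of S100a11 on chromosome 12 (S100a11-ps) had 0 counts in all 32 libraries.

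RefSeq promoter windows of GRCm38.p6, from 250 bases before to 50 bases after the annotated start, were held for 4 of the 5 genes, all but S100a10. The windows of S100a4 and S100a6 are shown because these neighbours were both higher in cKO spleen cells, and that of S100a11 because it was the most abundant member in CH12F3. All are on the plus strand, S100a4 at chr3:90603520-90603819, S100a6 at chr3:90612644-90612943 and S100a11 at chr3:93520246-93520545. Capitals mark CG dinucleotides.

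S100a4: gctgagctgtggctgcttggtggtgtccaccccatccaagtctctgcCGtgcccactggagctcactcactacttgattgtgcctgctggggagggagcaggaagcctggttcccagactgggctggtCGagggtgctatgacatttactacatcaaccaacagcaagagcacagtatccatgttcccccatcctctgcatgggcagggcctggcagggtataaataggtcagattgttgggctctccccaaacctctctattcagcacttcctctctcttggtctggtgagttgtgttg

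S100a6: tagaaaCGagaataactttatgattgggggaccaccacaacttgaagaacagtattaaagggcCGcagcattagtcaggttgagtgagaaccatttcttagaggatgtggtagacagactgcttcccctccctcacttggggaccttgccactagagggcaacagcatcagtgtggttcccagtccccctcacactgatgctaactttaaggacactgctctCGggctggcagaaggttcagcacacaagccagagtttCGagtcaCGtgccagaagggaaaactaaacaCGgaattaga

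S100a11: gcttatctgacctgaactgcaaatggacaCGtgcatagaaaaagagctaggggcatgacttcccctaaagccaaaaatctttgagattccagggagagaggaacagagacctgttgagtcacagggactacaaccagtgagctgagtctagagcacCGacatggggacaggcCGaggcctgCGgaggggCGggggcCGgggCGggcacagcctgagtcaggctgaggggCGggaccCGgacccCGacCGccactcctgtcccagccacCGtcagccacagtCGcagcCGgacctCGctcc

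The S100a4 window held 2 CG dinucleotides, S100a6 held 6, S100a13 held 14 and S100a11 held 15, against a median of 7 over 32534 mouse promoter windows of the same length. The share of G and C was 55.3% in S100a4, 49.3% in S100a6, 59.3% in S100a13 and 61.7% in S100a11, against a median of 53%. Of the windows of the 4 genes, only that of S100a4 held a TATAAA, which began 31 bases before the start and which 13.6% of all windows held on either strand. Only that of S100a11 held the AP-1 letters TGANTCA, 136 and 38 bases before the start (7.79% of all windows), and the GC box letters GGGCGG, which began 64, 52 and 24 bases before it (35.9%). The E-box letters CANNTG were in the windows of S100a6, S100a11 and S100a13 and in 72.3% of all windows. All letters were searched on both strands, and none of these motifs overlaps another here.

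The libraries held 7112130 to 15550229 mouse counts in CH12F3 and 9807560 to 16359477 in spleen. RNA of fly S2 cells had been added, and fly counts came to 2.15 to 3.52% of the mouse counts in CH12F3 and 2.97 to 8.39% in spleen. Elof1 itself, the check of the labels, ran from 11 to 54 counts in vector libraries against 1977 to 5956 in ELOF1 libraries, and from 20 to 89 in cKO against 133 to 598 in WT spleen cells. Its log2 fold change was -6.91 ± 0.45 at day 1.5 in CH12F3 (edgeR's quasi-likelihood test, Benjamini-Hochberg adjusted p = 1.09e-05). In spleen it was -2.84 ± 0.36 at day 2.5 (adjusted p = 0.000413) and -2.23 ± 0.45 at day 3.5 (adjusted p = 0.0175, same test). An error after a fold change is the standard error of the fit here and below. The 8 B cell markers looked at, Cd79a among them, were detected in every group, with summed levels of 944 to 1518 CPM in CH12F3 and 3223 to 5140 CPM in spleen. CPM are counts scaled to the size of each library by TMM over the 32 libraries, and RPKM are CPM per kilobase of summed exon length. Library numbers in the labels form a low and a high run, called the first and second library series here. Both series were present at day 1.5 and day 2.5, and the later days were all in the second, so a term for series was fitted. All 5 members passed the filter on low counts in spleen, and 3 of 5 passed in CH12F3, S100a10, S100a11 and S100a13.

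In spleen, S100a4 and S100a6 were higher in every cKO library than in every WT library at both days, about 3-fold on average. S100a10, S100a11 and S100a13 had overlapping groups at both days. Of all 13367 genes tested in spleen, 1.35% were likewise higher in every cKO than in every WT library at day 2.5, with 5 libraries a group, and 12.5% at day 3.5, with 3 a group. These values chose the genes, so they are shown without a test.

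S100a4 read 2.90, 4.04, 6.63, 8.13 and 4.08 CPM in the 5 cKO libraries of day 2.5, in the order of their replicate numbers, against 1.27, 0.289, 2.08, 2.48 and 2.66 CPM in the WT libraries. The lowest cKO library lay just above the highest WT library, and the lowest WT value rested on 3 counts. At day 3.5 the cKO libraries had 2.02, 3.42 and 3.46 CPM and the WT libraries 0.649, 1.01 and 1.13 CPM. Behind these values stood 29 to 82 counts in cKO and 3 to 30 in WT at day 2.5, and 22 to 41 in cKO and 7 to 14 in WT at day 3.5, so S100a4 was a scarce transcript in each library. The means were 5.15 ± 2.15 CPM in cKO and 1.75 ± 0.979 CPM in WT at day 2.5 (SD, n = 5 each), and 2.97 ± 0.817 CPM in cKO and 0.928 ± 0.250 CPM in WT at day 3.5 (SD, n = 3 each). The log2 fold change of cKO over WT was 1.62 ± 0.38 at day 2.5, a 3.07-fold difference, and 1.66 ± 0.52 at day 3.5, a 3.16-fold difference.

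S100a6 was the more abundant of the pair. Its cKO libraries had 33.4, 33.8, 42.1, 54.6 and 17.9 CPM at day 2.5 and its WT libraries 13.4, 10.9, 15.9, 10.02 and 5.94 CPM. The lowest cKO library and the lowest WT library were both replicate 5 and both in the first library series. At day 3.5 S100a6 read 21.8, 27.8 and 39.4 CPM in cKO and 7.42, 7.33 and 10.5 CPM in WT. Its means were 36.3 ± 13.4 CPM in cKO and 11.2 ± 3.76 CPM in WT at day 2.5 (SD, n = 5 each), and 29.6 ± 8.93 CPM in cKO and 8.42 ± 1.82 CPM in WT at day 3.5 (SD, n = 3 each). The log2 fold change was 1.74 ± 0.27 at day 2.5 (3.33-fold) and 1.82 ± 0.36 at day 3.5 (3.52-fold). The counts behind S100a6 were 237 to 544 in cKO and 67 to 161 in WT, so its values carry less counting error than those of S100a4.

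**Figure D1:**
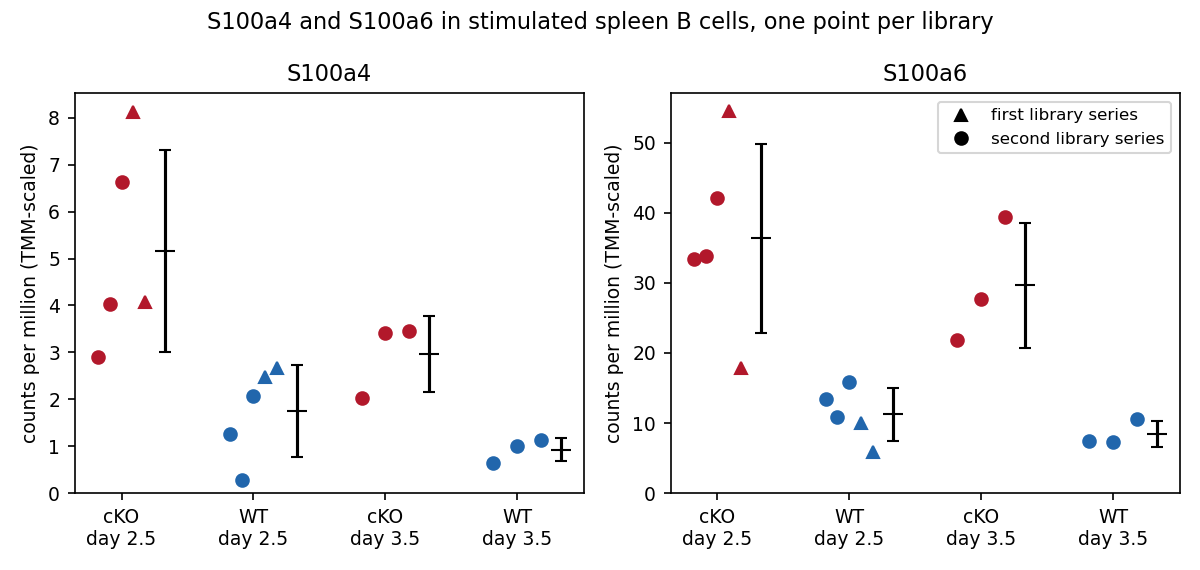
CPM of S100a4 and S100a6 in each spleen library, cKO in red and WT in blue, at days 2.5 and 3.5, with the mean and SD as a bar, triangles for the first library series and circles for the second. Every cKO point lies above every WT point of the same day, with means of 5.15 against 1.75 CPM for S100a4 and 36.3 against 11.2 CPM for S100a6 at day 2.5.

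Since every cKO library was above every WT library, both differences had to keep their direction within each library series. The split by series is a description of the same values and adds no support. At day 2.5 S100a4 averaged 6.10 CPM in cKO and 2.57 CPM in WT in the first series (2 libraries each), and 4.52 CPM in cKO and 1.21 CPM in WT in the second (3 libraries each). S100a6 averaged 36.2 CPM in cKO and 7.98 CPM in WT in the first series, and 36.4 CPM in cKO and 13.4 CPM in WT in the second. Scaled to the fly RNA in place of the mouse total, which moved the median of all tested genes by -0.15 at day 2.5 and -0.28 at day 3.5, the log2 fold changes were 1.44 and 1.43 for S100a4 and 1.59 and 1.51 for S100a6. In bulk libraries, fewer cells of a type and less RNA per cell cannot be told apart, so a higher level may stand for more cells with the transcript or for more of it in each.

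S100a10, the annexin A2 partner, differed little in spleen, with 22.2, 24.1, 24.9, 13.6 and 16.9 CPM in cKO and 18.7, 21.001, 17.8, 9.61 and 16.6 CPM in WT at day 2.5. Its log2 fold changes were 0.29 ± 0.15 at day 2.5 and 0.22 ± 0.20 at day 3.5, when cKO libraries had 18.3, 21.7 and 20.5 CPM and WT libraries 13.3, 22.4 and 16.2 CPM. S100a11 read 20.8, 25.9, 28.3, 18.6 and 12.0 CPM in cKO and 20.3, 18.1, 17.1, 16.3 and 9.84 CPM in WT at day 2.5. At day 3.5 its values were 25.2, 31.3 and 26.7 CPM in cKO and 21.97, 36.4 and 27.99 CPM in WT, and its log2 fold changes were 0.36 ± 0.17 and -0.05 ± 0.21. S100a13 had 9.89, 11.9, 11.2, 13.9 and 12.4 CPM in cKO and 9.62, 8.19, 9.79, 10.4 and 10.02 CPM in WT at day 2.5. At day 3.5 it had 7.55, 11.6 and 7.11 CPM in cKO and 8.53, 11.5 and 9.39 CPM in WT, with log2 fold changes of 0.31 ± 0.15 and -0.16 ± 0.19. At day 2.5, 3 of the 5 cKO libraries lay above all WT libraries for S100a10 and for S100a11, and 4 of 5 for S100a13. At day 3.5 it was 0 of 3 for S100a10 and for S100a11, and 1 of 3 for S100a13. Such counts were not made for all genes. For each of the 3 genes the groups overlapped at both days, and only S100a10 kept one sign at both days, which with fly scaling became 0.12 and -0.00. By the edgeR test, which is given for no member here, 5.18% of all tested genes differed at an adjusted p below 0.05 at day 2.5 (2.82% higher in cKO) and 2.07% at day 3.5 (1.14% higher).

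The make-up of the family's RNA differed accordingly, as a restatement of these values per length. S100a6 took 36.8 ± 7.30% of the summed RPKM of the 5 genes in cKO and 19.6 ± 4.12% in WT at day 2.5 (SD, n = 5 each). At day 3.5 its share was 31.6 ± 6.58% in cKO and 12.3 ± 3.27% in WT (SD, n = 3 each). S100a11 took 30.7% in cKO and 40.7% in WT at day 2.5, and 42.2% in cKO and 57.4% in WT at day 3.5. The leading transcript per length at day 2.5 was therefore S100a6 in cKO, with 50.5 ± 18.7 RPKM, and S100a11 in WT, with 31.97 ± 7.68 RPKM. The sum of the 5 genes was 134 ± 30.3 RPKM in cKO and 77.8 ± 12.1 RPKM in WT at day 2.5.

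**Figure D2:**
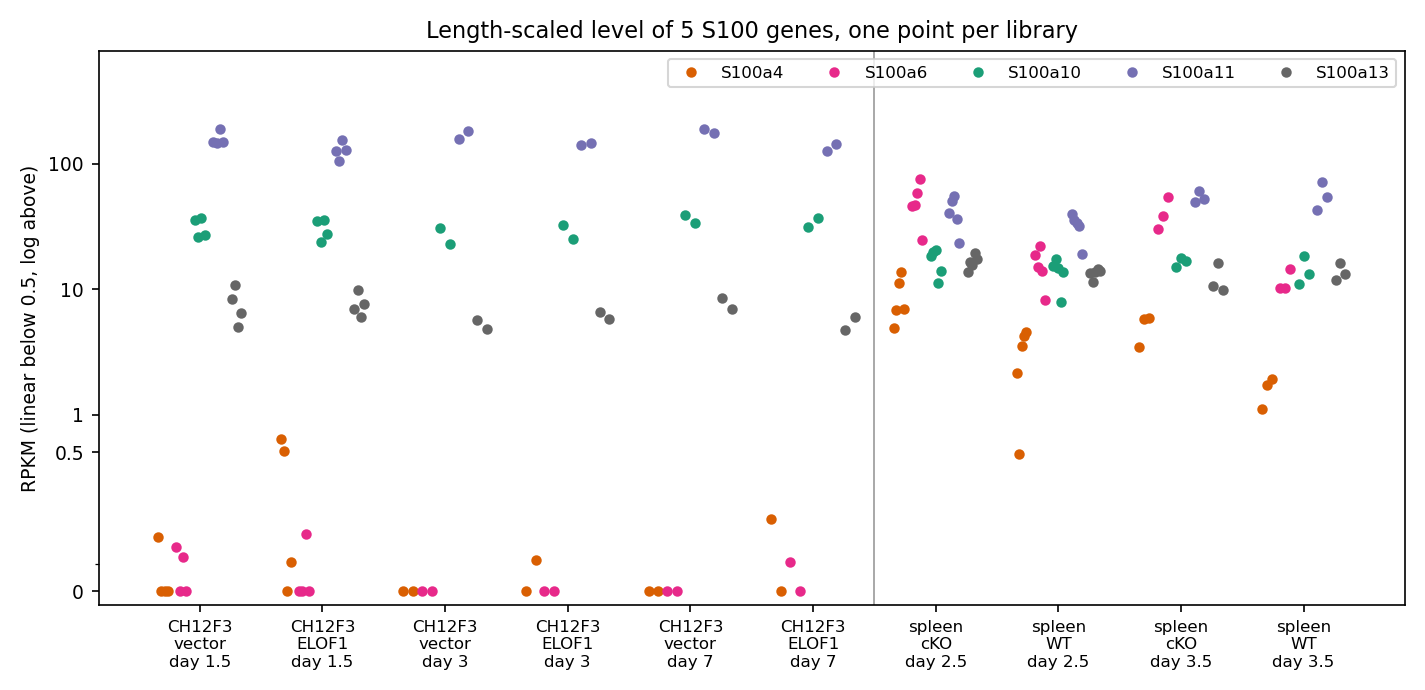
RPKM of the 5 S100 genes in every library of the 10 groups, 1 point per library, on an axis that is linear below 0.5 RPKM and logarithmic above. S100a11 leads in all CH12F3 groups (means of 129 to 183 RPKM), while S100a4 and S100a6 lie near 0 there and reach means of 8.78 and 50.5 RPKM in cKO spleen cells at day 2.5.

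The CH12F3 line had almost no S100a4 or S100a6 RNA, so the knockout of Elof1 could not be compared for the pair there. S100a4 had 11 counts in all 16 CH12F3 libraries together, with 10 libraries at 0. It had 1, 0, 0 and 0 counts in the vector libraries of day 1.5 and 3, 3, 0 and 1 in the ELOF1 libraries. At days 3 and 7 all vector libraries were at 0, against 0 and 1 counts in the ELOF1 libraries of day 3 and 2 and 0 in those of day 7. S100a6 had 5 counts over the 16 libraries, with 12 at 0 and none above 2. Over the 16 libraries together, 3 counts correspond to 0.0148 CPM, the level up to which a gene with 0 counts could lie. S100a4 and S100a6 both had more counts than that. Counting error alone is covered by this limit.

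S100a10, S100a11 and S100a13 were well measured in CH12F3, with 293 to 661, 527 to 1454 and 40 to 88 counts per library. The genotype comparison in CH12F3 was not used to choose the genes and was tested. In the main edgeR fit, which does not pair libraries by replicate number, none of the 3 passed an adjusted p of 0.05 at any day. At days 1.5, 3 and 7, 1.15%, 0.00704% and 0.0352% of all 14201 tested genes passed.

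S100a11 came nearest to a difference. Its vector libraries had 76.5, 75.1, 97.1 and 75.8 CPM at day 1.5 and its ELOF1 libraries 65.2, 53.9, 78.8 and 65.8 CPM. At day 3 it read 80.7 and 94.4 CPM in vector and 72.0 and 75.5 CPM in ELOF1, and at day 7 97.6 and 89.9 CPM in vector and 64.7 and 73.9 CPM in ELOF1. The vector library was above the ELOF1 library of the same number in 8 of 8 pairs. The share of all tested genes with 8 of 8 pairs on one side was not counted. The groups overlapped at day 1.5 but not at day 3 or day 7, when the 2 libraries of each arm also lay apart in 32.5% and 32.7% of all tested genes. At day 1.5 the vector mean was 81.1 ± 10.7 CPM and the ELOF1 mean 65.9 ± 10.2 CPM (SD, n = 4 each). The log2 fold change of vector over ELOF1 was 0.32 ± 0.10 at day 1.5 (1.25-fold, adjusted p = 0.170, edgeR's quasi-likelihood test with Benjamini-Hochberg adjustment). At day 3 it was 0.24 ± 0.14 (adjusted p = 1) and at day 7 0.45 ± 0.14 (adjusted p = 0.682), by the same edgeR test. These p-values come from the main fit, which leaves out a pairing by replicate number, although same-numbered CH12F3 libraries deviated together. With that number as a block, the day 1.5 value was 0.32 ± 0.08 and passed the edgeR test (adjusted p = 0.0140). The paired fit called 1221 genes in place of 164, and over all alternatives tried the adjusted p of S100a11 at day 1.5 ran from 0.0140 to 0.9999. At day 7 the paired fit gave 0.46 (adjusted p = 0.0642, edgeR). The genotype difference of S100a11 was not shown to vary with time, by -0.08 ± 0.18 at day 3 and 0.13 ± 0.18 at day 7 relative to day 1.5 (adjusted p = 1 each, edgeR interaction terms). Of the genes that passed the count filter, 0 passed either interaction by edgeR or by DESeq2, with 173 and 272 genes at an unadjusted edgeR p under 0.05. With no filter on counts, edgeR called 3 genes in the day 3 and 18 in the day 7 interaction, none of them a member.

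S100a10 gave no call between the arms. Its vector libraries read 42.9, 31.9, 44.6 and 32.8 CPM at day 1.5 and its ELOF1 libraries 42.7, 29.1, 43.0 and 33.6 CPM, so the numbered pairs moved together far more than the arms differed. At day 3 it read 37.3 and 27.8 CPM in vector and 39.2 and 30.3 CPM in ELOF1, and at day 7 47.7 and 40.9 CPM in vector and 38.2 and 44.5 CPM in ELOF1. The log2 fold changes were 0.06 ± 0.16, -0.10 ± 0.23 and 0.12 ± 0.23 (adjusted p = 0.942, 1 and 0.999, edgeR's quasi-likelihood test), with vector above ELOF1 in 4 of 8 pairs.

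S100a13 was the scarcest of the 3. It had 5.99, 7.78, 3.58 and 4.65 CPM in vector and 4.95, 7.04, 4.28 and 5.45 CPM in ELOF1 at day 1.5. At day 3 the values were 4.03 and 3.42 CPM in vector and 4.69 and 4.15 CPM in ELOF1, and at day 7 6.10 and 5.01 CPM in vector and 3.38 and 4.30 CPM in ELOF1. The pairs of libraries did not overlap at day 3, with vector lower, nor at day 7, with vector higher. The arms also lay apart in 32.5% of all tested genes at day 3 and in 32.7% at day 7. The log2 fold changes were 0.00 ± 0.20, -0.26 ± 0.29 and 0.55 ± 0.28 (adjusted p = 1, 1 and 0.898, edgeR's quasi-likelihood test). Vector was above ELOF1 in 4 of 8 pairs.

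**Figure D3:**
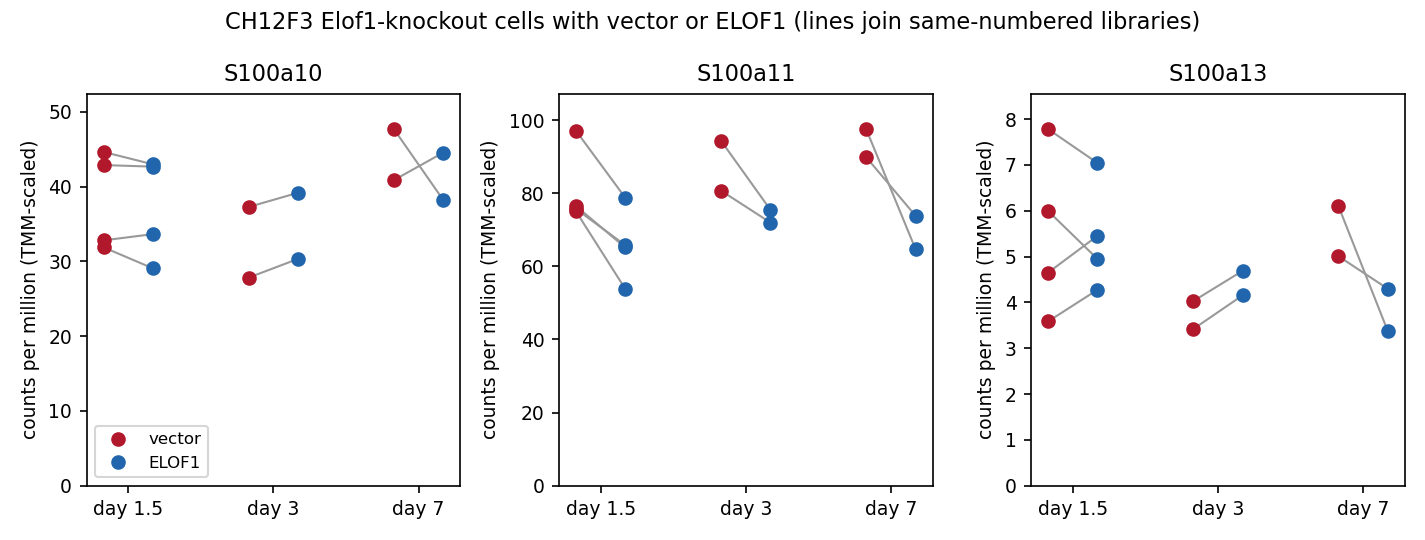
CPM of S100a10, S100a11 and S100a13 in CH12F3, vector in red and ELOF1 in blue, at days 1.5, 3 and 7, with a line joining libraries of the same replicate number. For S100a11 the line falls towards ELOF1 in 8 of 8 pairs, while S100a10 and S100a13 have 4 of 8 pairs each way. How often all tested genes have 8 of 8 pairs on one side was not counted.

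No member was called with time in the CH12F3 cultures. Relative to day 1.5, as the mean of both arms, S100a11 differed by 0.02 ± 0.10 at day 3 and 0.03 ± 0.10 at day 7 on the log2 scale (adjusted p = 0.990 and 0.944, edgeR). S100a10 differed by -0.20 ± 0.16 and 0.16 ± 0.16 (adjusted p = 0.848 and 0.754), and S100a13 by -0.16 ± 0.20 and 0.03 ± 0.20 (adjusted p = 0.931 and 0.968, same edgeR test). Of the 3 members 0 passed at either day, by edgeR or by any alternative tried, where 0.218% of tested genes passed at day 3 and 1.32% at day 7.

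In spleen, levels of the pair at day 3.5 were compared with day 2.5 within each genotype. S100a4 gave log2 fold changes of -0.50 ± 0.44 in cKO and -0.54 ± 0.52 in WT (adjusted p = 0.658 and 0.650, edgeR's quasi-likelihood test). S100a6 gave -0.44 ± 0.32 in cKO and -0.52 ± 0.35 in WT (adjusted p = 0.583 and 0.477, same edgeR test). Both were lower on average at the later day and did not pass in either genotype. Within the second library series, the one present at day 3.5, S100a6 passed in WT (-0.66, adjusted p = 0.0481, edgeR). S100a11 went the other way in WT, with 0.61 ± 0.21 (1.52-fold, adjusted p = 0.109, edgeR), and gave 0.19 ± 0.20 in cKO (adjusted p = 0.733, edgeR). The WT value of S100a11 rested on means of 16.3 ± 3.92 CPM at day 2.5 (SD, n = 5) and 28.8 ± 7.22 CPM at day 3.5 (SD, n = 3). The WT change of S100a11 passed without WT replicate 4 of day 2.5 (adjusted p = 0.0357), with no filter on counts (0.0123) and within the second library series (0.0117, edgeR each time). Over the 14 alternatives to the main edgeR fit, the adjusted p of S100a11 in WT ran from 0.0117 to 0.633. That of S100a6 in WT ran from 0.0481 to 0.730. S100a10 gave -0.22 ± 0.19 in cKO and -0.15 ± 0.19 in WT (adjusted p = 0.641 and 0.739), and S100a13 -0.35 ± 0.18 in cKO and 0.13 ± 0.18 in WT (adjusted p = 0.386 and 0.777, same edgeR test). Of the 5 members 0 passed in either genotype, where 3.4% of tested genes passed in cKO and 5.45% in WT. Whether the change with time differed between genotypes was not tested.

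The cell systems themselves differed most. Against WT spleen B cells of day 2.5, ELOF1 CH12F3 cells of day 1.5 had far less S100a4 and S100a6, more S100a10 and S100a11, and less S100a13. The systems also differ in stimulus, time, tissue of origin and Elof1 genotype, which cannot be told apart here. The ELOF1 CH12F3 cells are knockout cells with a construct. Their Elof1 RNA was 13.75-fold that of WT spleen cells (log2 fold change 3.78 ± 0.42). Of the 15639 genes tested jointly, 61.8% passed (28.9% higher and 32.9% lower in CH12F3). S100a4 had 7 counts over 4 ELOF1 libraries against 90 over 5 WT libraries, a level 12.1-fold lower (exact 95% interval 5.63 to 30.9, counting error only). S100a6 had 2 counts against 565, a level 266-fold lower (73.2 to 2199). The pair passed the filter on counts through the spleen libraries alone, so no test is given for it. S100a10 averaged 37.1 ± 6.88 CPM in ELOF1 CH12F3 cells (SD, n = 4) and 16.7 ± 4.30 CPM in WT spleen cells (SD, n = 5), a log2 fold change of 1.20 ± 0.18 (2.29-fold, adjusted p = 1.43e-06, edgeR). S100a11 averaged 65.9 ± 10.2 CPM in CH12F3 and 16.3 ± 3.92 CPM in spleen, a log2 fold change of 2.07 ± 0.16 (4.19-fold, adjusted p = 6.26e-12, edgeR). S100a13 averaged 5.43 ± 1.18 CPM in CH12F3 and 9.61 ± 0.851 CPM in spleen, a log2 fold change of -0.86 ± 0.18 (adjusted p = 0.000147, edgeR). Only the S100a13 difference turned with the scaling: per fly count it was 0.095 (adjusted p = 0.756, edgeR), since fly scaling moved the median of all genes from -0.06 to 0.88.

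**Figure D4:**
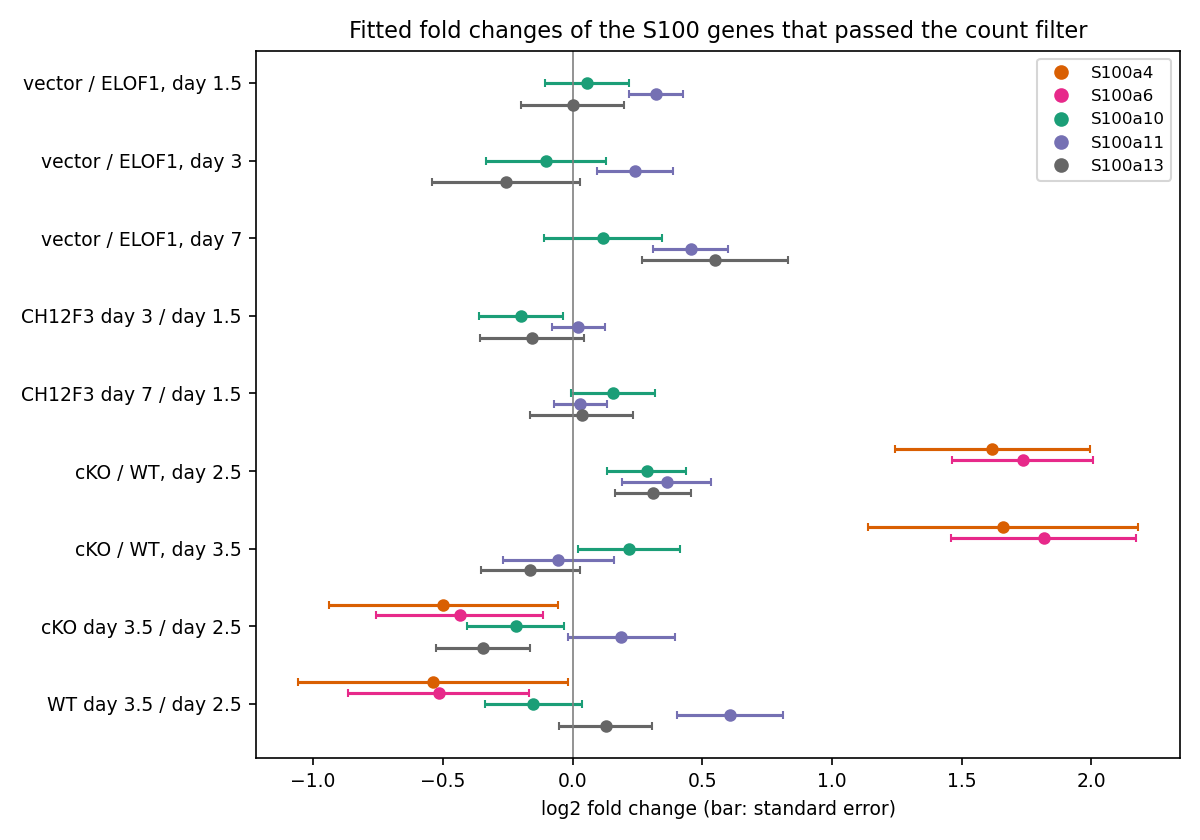
Log2 fold changes with standard errors of the S100 genes that passed the count filter, 1 row per comparison and 1 colour per gene. S100a4 and S100a6 lie between 1.62 and 1.82 in both spleen cKO over WT comparisons, while the other 3 genes lie between -0.16 and 0.36 there.

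Ordered by mean CPM over the 10 groups, the members fell into opposite patterns. For S100a10 and S100a11 all 6 CH12F3 groups came before all 4 spleen groups, and single libraries did not overlap either, with at least 27.8 and 53.9 CPM in CH12F3 and at most 24.9 and 36.4 CPM in spleen. For S100a4, S100a6 and S100a13 the means of all 4 spleen groups came first. Single libraries of S100a6 lay apart, with at most 0.147 CPM in CH12F3 and at least 5.94 CPM in spleen. Those of S100a4 and S100a13 overlapped: CH12F3 libraries reached 0.371 and 7.78 CPM, and spleen libraries went down to 0.289 and 7.11 CPM. How many of all genes lie apart between the systems in this way was not counted. Between ELOF1 CH12F3 cells of day 1.5 and WT spleen cells of day 2.5, 61.8% of jointly tested genes passed the edgeR test. Within CH12F3 no neighbouring groups in any member's order were apart. Within spleen the single gap was in S100a6, between cKO at day 3.5 and WT at day 2.5. In CH12F3 S100a11 made up 74.9 to 86.9% of the summed RPKM of the 5 genes, S100a10 10.8 to 20.7% and S100a13 2.16 to 7.05%. S100a4 and S100a6 made up at most 0.371% and 0.105% there.

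How the members varied between libraries of one group was described by correlations of log2 CPM after removal of group and series means, over 16 libraries of a system. Libraries share their own depth and composition, so these are descriptions. Removal of the means also leaves fewer independent values than libraries. In CH12F3 the 2 libraries of each group and series then mirror each other. The genes named as most alike are the highest of all those compared, so a high r is partly a matter of that choice. In spleen S100a4 and S100a6 deviated together, with Pearson's r of 0.62 and Spearman's rho of 0.71 (r = 0.69 without the 2 libraries farthest from the median). S100a11 deviated with S100a13 (r = 0.62) and with S100a6 (r = 0.57), whereas S100a10 went against S100a6 (r = -0.42). In CH12F3 S100a10 and S100a11 gave r = 0.54, and S100a11 and S100a13 gave r = -0.56. Of 8568 spleen genes compared, those most like S100a4 were Polr2d (r = 0.90), Ube3c (0.87) and Rcan3 (0.83), and those most like S100a6 were Ehd2 (0.96), Dip2b (0.94) and Itpr2 (0.94). The first gene of the list was Cxcr4 for S100a10 (0.93), Dap for S100a11 (0.93) and Rps15 for S100a13 (0.86). Of 8933 CH12F3 genes, Smarca5 was most like S100a10 (0.96), Kif2c most like S100a11 (0.88) and Ppm1b most like S100a13 (0.94). None of the nearest genes was another member.

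Other S100 genes were nearly silent. Of 12 listed, 11 were in the tables, and S100a1 alone passed the filter, with group means of 0.945 to 2.13 CPM and 0 calls in any comparison. S100a8 and S100a9, which form the calprotectin of neutrophils, had 0 counts in all 32 libraries, as did S100a7a and S100g, which allows up to 0.00784 CPM (3 counts over all libraries). S100a3, the gene just before S100a4, had 0 counts in CH12F3 and 22 in spleen, 11 of them in 1 cKO library of day 3.5. S100a5, which lies between S100a4 and S100a6, had 5 counts in CH12F3 and 18 in spleen. S100a14, S100a16, S100b and S100z had at most 14 counts each over the 32 libraries.

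Genes around the members gave no call between the spleen genotypes. Of 56 other genes within 250 kb of a member, 10 were tested in spleen, and none passed in cKO over WT at either day. Of all tested genes 5.18% passed at day 2.5 and 2.07% at day 3.5, so no call among 10 genes is near the general share. The median log2 fold change of the 10 was -0.02 at day 2.5 and 0.01 at day 3.5, beside 0.00 and -0.00 for all tested genes. S100a1, which runs away from S100a13 on the other strand, gave -0.17 ± 0.47 at day 2.5 (adjusted p = 0.914, edgeR). Ints3, a subunit of the Integrator complex, gave -0.29 ± 0.10 (adjusted p = 0.0988, edgeR), the nearest to a call, and Dennd4b 0.32 ± 0.13 (adjusted p = 0.179, edgeR).

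**Figure D5:**
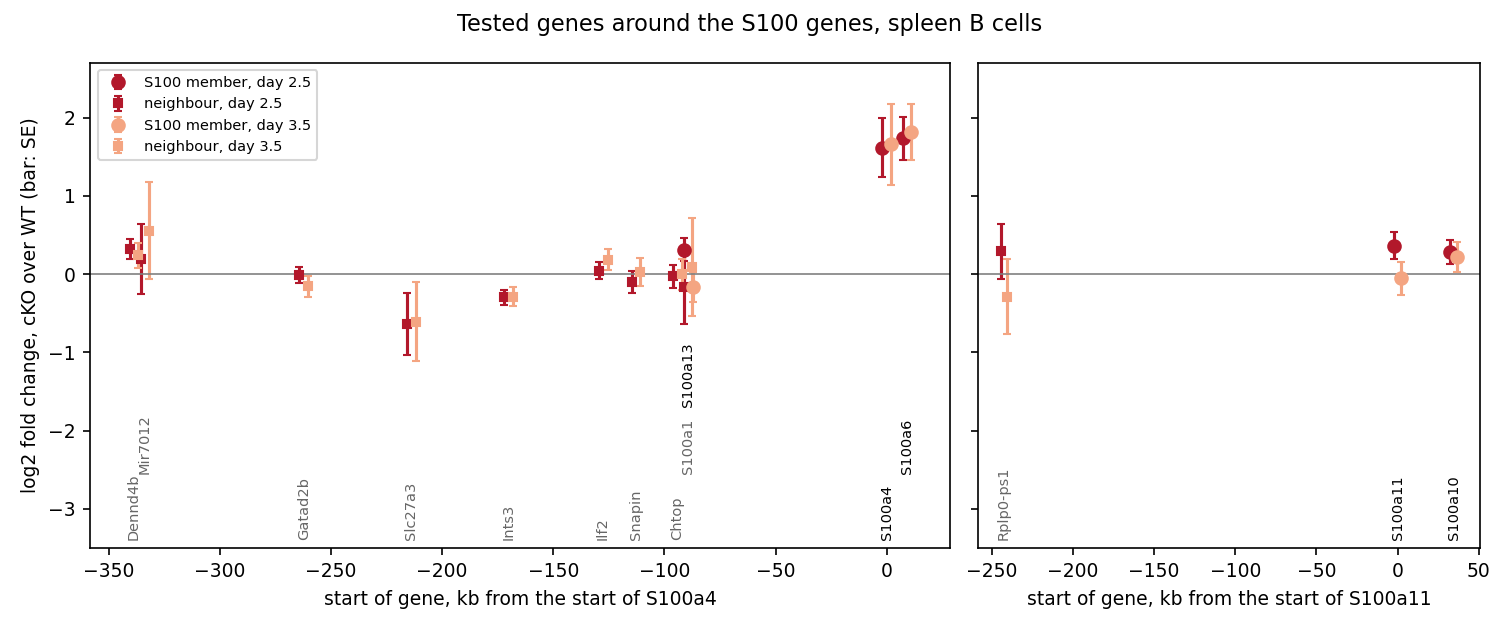
Log2 fold changes of cKO over WT with standard errors for the tested genes around S100a4 (left) and S100a11 (right), by the distance of their starts from the start of that gene in kb, at days 2.5 (dark) and 3.5 (light), with members as circles and other genes as squares. S100a4 and S100a6 stand at 1.62 and 1.74 at day 2.5, and none of the other genes drawn passed the test.

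Transcripts of the proteins that S100 members bind ranged from scarce to abundant. Anxa2, the annexin that holds S100A10, averaged 2.94 ± 2.03 CPM in cKO and 3.32 ± 1.48 CPM in WT spleen cells at day 2.5 (SD, n = 5 each). In CH12F3, where S100a10 was higher, Anxa2 averaged 0.0845 CPM in vector and 0.0928 CPM in ELOF1 at day 1.5. Anxa1, the partner of S100A11, stayed below 0.4 CPM in every group mean, the highest being 0.374 CPM in cKO at day 3.5. Myh9, the myosin heavy chain bound by S100A4, averaged 1669 ± 168 CPM in cKO and 1352 ± 180 CPM in WT at day 2.5, and it was higher in cKO (0.31 ± 0.08, adjusted p = 0.0361, edgeR). Cacybp, the partner of S100A6, averaged 114 ± 9.20 CPM in cKO and 131 ± 22.6 CPM in WT at day 2.5 and did not pass there. The S100A13 partners Fgf1, Syt1 and Il1a had group means of at most 0.217, 0.125 and 0.379 CPM. Of 15 listed binding partners, 10 were tested in spleen: 1 was higher in cKO and 0 lower at day 2.5, and 0 passed at day 3.5. Of all tested genes 5.18% and 2.07% passed at these days, and 10 genes are too few to tell the counts from those shares. The median of the 10 partners was 0.07 at day 2.5 and 0.08 at day 3.5. In CH12F3 0 of 9 tested partners passed at any day, where 1.15%, 0.00704% and 0.0352% of all tested genes passed at days 1.5, 3 and 7. Cacybp and Anxa6 were lower at day 3.5 than at day 2.5 in WT (-0.48 ± 0.12 and -0.44 ± 0.10, adjusted p = 0.0307 and 0.0148, edgeR).

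Of 12 annexins, 7 were tested in spleen, and 0 passed in cKO over WT at either day. Of all tested genes 5.18% passed at day 2.5 and 2.07% at day 3.5. In CH12F3 1 of 6 annexins was lower in vector at day 1.5, Anxa9 (-1.35 ± 0.28, adjusted p = 0.0347, edgeR), where 1.15% of all tested genes passed. Of 33 other genes with EF-hands, 32 were tested in spleen, of which 4 were higher and 1 lower in cKO at day 2.5, with a median of -0.01, where 5.18% of all tested genes passed. Rcn3, a reticulocalbin of the secretory pathway, was 2.44-fold higher in cKO at day 2.5 (log2 fold change 1.29 ± 0.20, adjusted p = 0.00154, edgeR). Cib1 was also higher (0.38 ± 0.10, adjusted p = 0.0423), and Ncs1, neuronal calcium sensor 1, was lower (-0.56 ± 0.15, adjusted p = 0.0424, edgeR). At day 3.5 2 were higher, Rcn3 (1.35 ± 0.25, adjusted p = 0.0112) and Efhd2 (0.46 ± 0.11, adjusted p = 0.0398, edgeR), and 0 lower. In CH12F3 1 of 30 was lower in vector at day 1.5, Rcn1 (-0.54 ± 0.08, adjusted p = 0.00743, edgeR).

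Genes known to be high together with S100 genes in memory lymphocytes were counted as a list of 15, all of them tested in spleen. At day 2.5 6 of 15 were higher and 1 lower in cKO, where 5.18% of all tested genes passed (2.82% higher). The median log2 fold change of the 15 was 0.47, beside 0.00 for all tested genes. At day 3.5 2 were higher and 1 lower, where 2.07% of all tested genes passed, with a median of 0.21. The list was drawn up with earlier results of these samples known, so its direction is not independent evidence. Lgals1, which encodes galectin-1, averaged 39.4 ± 4.28 CPM in cKO and 20.3 ± 3.35 CPM in WT at day 2.5 (0.97 ± 0.11, adjusted p = 0.000174, edgeR). Itgb7, the integrin chain of gut homing, was higher at both days (0.98 ± 0.25 and 1.60 ± 0.32, adjusted p = 0.0325 and 0.0175, edgeR). Klf2 (0.77 ± 0.21, adjusted p = 0.0457) and Tmsb10, a thymosin that binds actin (0.68 ± 0.12, adjusted p = 0.00444), were higher at day 2.5. Vim, the intermediate filament vimentin, was higher at day 3.5 (0.56 ± 0.10, adjusted p = 0.00695), and Cd44 was lower (-0.56 ± 0.11, adjusted p = 0.0165, edgeR). In CH12F3 1 of 11 was higher in vector at day 1.5, Tagln2 (0.52 ± 0.10, adjusted p = 0.0294, edgeR), where 1.15% of all tested genes passed.

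S100a4 and S100a6 are abundant in several cell types other than B cells, so markers of those types are given for spleen. Of 9 T cell markers, 8 were detected in both genotypes at day 2.5, with a sum of 163 to 322 CPM in cKO and 148 to 284 CPM in WT, and of 342 to 447 CPM in cKO and 273 to 299 CPM in WT at day 3.5. Nearly all of it was Thy1, at 248 ± 62.2 CPM in cKO and 208.3 ± 59.2 CPM in WT at day 2.5. The defining Cd3e averaged 0.0591 CPM in cKO and 0.0211 CPM in WT at day 2.5, and Cd4 was at 0 in both. Of 10 macrophage and monocyte markers, 8 were detected in either genotype at day 2.5, and the sum was 17.96 to 29.5 CPM in cKO and 10.6 to 30.0 CPM in WT. At day 3.5 it was 24.5 to 34.0 CPM in cKO and 15.6 to 21.9 CPM in WT, with C1qa, C1qb and C1qc at 0 in both. Cd68 was higher in cKO at day 2.5 (14.1 ± 1.53 CPM against 8.52 ± 1.43 CPM in WT, 0.74 ± 0.13, adjusted p = 0.00361, edgeR), while Csf1r averaged 0.0801 CPM in cKO and 0.204 CPM in WT. Cd68 was the only call among 4 tested markers of this list, where 5.18% of all tested genes passed. Neutrophil markers summed to 0.599 to 3.01 CPM in cKO and 0.211 to 2.48 CPM in WT at day 2.5, and NK cell markers to 1.63 to 6.02 CPM in cKO and 2.27 to 4.52 CPM in WT. Fibroblast markers summed to at most 0.2 CPM, erythroid markers to at most 1.13 CPM and platelet markers to at most 4.36 CPM in any spleen library.

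Dendritic cell markers summed to 13.04 to 25.6 CPM in cKO and 23.2 to 72.2 CPM in WT at day 2.5. Of 7 listed, only 2 were tested, Flt3 and Zbtb46, and both were lower in cKO. Clec9a and Clec10a had 0 counts in both genotypes at that day. Beside these and the following marker calls, 5.18% of all tested genes passed at day 2.5 and 2.07% at day 3.5. Among B cell subsets, the 6 B-1 cell markers summed to 369 to 473 CPM in cKO and 319 to 414 CPM in WT at day 2.5, and to 362 to 425 CPM in cKO and 293 to 357 CPM in WT at day 3.5. Of these 6, Spn, which encodes CD43, was higher in cKO at both days (0.66 ± 0.11 and 0.58 ± 0.14, adjusted p = 0.00297 and 0.0458, edgeR). The 4 memory B cell markers summed to 20.8 to 26.3 CPM in cKO and 28.6 to 35.8 CPM in WT at day 2.5, and Cd80 was lower in cKO. At day 3.5 their sums overlapped, at 21.1 to 26.3 CPM in cKO and 23.8 to 31.0 CPM in WT, and 0 of 4 passed. The marginal zone markers summed to 68.9 to 131 CPM in cKO and 91.8 to 137 CPM in WT at day 2.5, with Myof higher. The plasma cell markers summed to 1030.2 to 1202 CPM in cKO and 1074 to 1498 CPM in WT at day 2.5, with Irf4 lower. The part of other cell types and B cell subsets in the S100a4 and S100a6 levels was not tested.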

How the data were processed

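RNA was measured in 32 libraries of mouse B cells. Per the labels' protocols, an NEB kit removed ribosomal RNA and another kept the strand. The authors deposited whole-number read counts for each gene, in 1 table per cell system. The submitters' processing notes name Bowtie2 and featureCounts, with mm10 for mouse and dm6 for fly, without version, and whether counting used the strand is not stated there. The gene lengths and positions used are those the authors deposited in the same tables, per the file headers. Each table held 43345 mouse and 17509 fly genes, and 884 mouse genes without a symbol took 0.355 to 0.470% of the mouse counts. The 5 members, the lists and the tests were chosen with earlier results of these data known.

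Counts were fitted per cell system with edgeR 4.0.16 (R 4.3.3, limma 3.58.1) by the quasi-likelihood test, with TMM scaling, a filter on low counts by group (minimum count 10), 1 term per group and 1 for library series, and Benjamini-Hochberg adjustment over all tested genes (14201 in CH12F3, 13367 in spleen, 15639 in a joint fit of both systems). The residual degrees of freedom were 9 in CH12F3 and 11 in spleen. Called means an adjusted p below 0.05. DESeq2 1.42.0 served as an alternative. The steps were tested on simulated data. Tables and figures were made with Python 3.11.15, pandas 2.3.3, NumPy 2.4.6, SciPy 1.17.1 and matplotlib 3.10.9. In CH12F3, libraries of the same number, which the labels give, deviated together from the means of their group and series (r = 0.337 to 0.498 for every pair). The main fit leaves this pairing out, and a block for the replicate number was fitted as an alternative. From each list up to 4 called genes with the largest fold change were named per comparison, with the 3 genes most like each member among those whose log2 CPM averaged 3 or more. Not every gene that this rule names is reported here. Other genes, such as the partner of each member and defining markers, were named for their role, after their values were seen.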

Additional observations from a re-analysis of the deposited data

Results flagged for a closer look

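One library of S100a11 stood apart from its group. In the 4 CH12F3 vector libraries of day 1.5, replicate 3 had 97.1 CPM, and the other 3 libraries lay between 75.1 and 76.5 CPM, so that the gap to the next library took 0.926 of the whole range, against a critical value of 0.829 for 4 samples. The ELOF1 library of the same number was also the highest of its group, at 78.8 CPM. Without vector replicate 3 the log2 fold change of S100a11 at day 1.5 was 0.26 (adjusted p = 0.359, edgeR), against 0.32 with it. A total of 16 sets of a member and a group of 4 or 5 libraries were looked at in this way, and chance alone marks about 1 set in 20.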

How the results depend on the processing

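The number of members called was unchanged under every alternative tried in the genotype comparisons of CH12F3 at days 3 and 7, the CH12F3 time comparisons, the interactions and the cKO time comparison of spleen. In vector over ELOF1 at day 1.5 the replicate block called 1 member, S100a11, in place of 0. In WT spleen over time no filter on counts called 1 member in place of 0 and the second library series alone called 2, S100a11 and S100a6 (log2 fold change -0.66, adjusted p = 0.0481, edgeR), while leaving out 1 library at a time called 0 to 1. S100a13 in CH12F3 over spleen turned to 0.095 with fly scaling, which moved the median of all genes from -0.06 to 0.88. Why the scalings differed between the systems was not tested. Over all alternatives the spleen cKO over WT log2 fold change ran from 1.25 to 1.91 for S100a4 and 1.37 to 2.19 for S100a6 at day 2.5, and from 1.43 to 1.87 and 1.51 to 2.01 at day 3.5. By the same measure as in CH12F3, spleen numbers did not pair the samples throughout (r = -0.281 to 0.133, but 0.784 for replicates 4 and 5 of day 2.5), and the replicate block there gave 1.60 and 1.67 for S100a4 and 1.68 and 1.80 for S100a6. Spleen cKO over WT at day 2.5 had 693 calls (377 higher, 316 lower), 93 with fly scaling (30 higher, 63 lower), 203 without the series term, 343 with the compared groups alone, 1031 by DESeq2, 1543 with the block, and 0 and 855 in the first and second series alone. At day 3.5 it had 277 (153 higher, 124 lower), and 105 with fly scaling (17 higher, 88 lower). Vector over ELOF1 at day 1.5 had 164 (86 higher, 78 lower), and 45 with fly scaling (5 higher, 40 lower), 22 without the series term and 1221 with the block. Time in spleen gave 455 calls in cKO and 729 in WT, and 61 and 167 with fly scaling. Depth limits S100a4 most, at 3 to 82 counts per spleen library.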
